A study of Rattus norvegicus with 6 samples.

Results

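The let-7 family guide strands are the mature miRNAs from the 5p arm of the let-7 precursors and of miR-98. They were taken by name from the table of known mature miRNAs, in which 9 of the 753 listed miRNAs belong to the family: rno-let-7a-5p, rno-let-7b-5p, rno-let-7c-5p, rno-let-7d-5p, rno-let-7e-5p, rno-let-7f-5p, rno-let-7g-5p, rno-let-7i-5p and rno-miR-98-5p (written below without the species prefix rno where many are listed). The 6 small RNA libraries were made from rat lumbar cord taken on day 14, 3 from the bone cancer pain (BCP) group and 3 from the sham group, and the study describes them as biological replicates. Whether each library is a single rat or a pool is not given in the sources used here. The BCP rats received living Walker 256 breast carcinoma cells, a rat mammary tumor line, in the marrow cavity of the left tibia, and the sham rats heat-killed cells of the same line. Both groups therefore carried the surgery and injected cell material, and no uninjected group is among these libraries. The sampled tissue was the side of the cord on which the tibia had been injected, after the meninges were taken off. The sample labels give the strain as Wistar, while the methods of the study name female Sprague Dawley rats, and neither gives an age for the sequenced animals. Values of 3 libraries are listed in the order of replicates 1, 2 and 3 throughout.

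Let-7 miRNAs are among the best conserved miRNAs of animals. They are nearly absent from early embryonic and stem cells, where the RNA-binding protein LIN28 blocks the maturation of their precursors, and they accumulate as neurons and glia differentiate, so that the adult nervous system holds large amounts of them. Each precursor hairpin gives a guide strand, which is loaded into an Argonaute protein and pairs with target mRNAs mainly through its seed (bases 2 to 8), and a passenger strand, which is mostly degraded. Known targets of let-7 include mRNAs for growth and cell cycle proteins such as RAS proteins, HMGA2 and LIN28 itself.

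The sequences are shown because the members can be told apart in sequencing only by a few bases outside the seed. They were read from RefSeq (assembly GRCr8), which held all 9 members, and are written 5′ to 3′ with the seed in capitals:
rno-let-7a-5p: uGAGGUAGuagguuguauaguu
rno-let-7b-5p: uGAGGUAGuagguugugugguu
rno-let-7c-5p: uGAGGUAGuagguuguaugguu
rno-let-7d-5p: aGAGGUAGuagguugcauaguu
rno-let-7e-5p: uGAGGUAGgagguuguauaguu
rno-let-7f-5p: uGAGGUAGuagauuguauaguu
rno-let-7g-5p: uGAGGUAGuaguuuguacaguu
rno-let-7i-5p: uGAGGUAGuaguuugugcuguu
rno-miR-98-5p: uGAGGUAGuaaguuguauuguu

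All 9 members had 22 bases and the same seed. Of the 688 listed miRNAs with a mature sequence in RefSeq, these 9 were the ones with that seed and 0 others had it. The bases were the same in all members at 14 positions and differed at 8, counted from 1 at the 5′ end. Compared with let-7a-5p, let-7c-5p differed by A19G, let-7e-5p by U9G and let-7f-5p by G12A, and let-7c-5p differed from let-7b-5p by G17A. These are the 4 of 36 member pairs that lie 1 base apart. The farthest pair, let-7d-5p and let-7i-5p, differed at 6 bases. From let-7a-5p, let-7d-5p differed by U1A and U16C, let-7g-5p by G12U and U18C, miR-98-5p by G11A and A19U, and let-7i-5p by G12U, A17G, U18C and A19U. How the authors assigned a read that matches several members with a mismatch is not given in the sources used here, so levels of the closest members are uncertain to that extent, and the family was also tested as a sum.

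In the GRCr8 annotation the 9 members come from 12 precursor genes, since let-7a-5p, let-7c-5p and let-7f-5p are each made from 2. On chromosome 17, the precursors of let-7a-1, let-7f-1 and let-7d lie within 10 kb of each other, inside a long non-coding RNA gene. The let-7c-2 and let-7b precursors are neighbours on chromosome 7. On chromosome X, let-7f-2 and miR-98 lie within Huwe1, which encodes a ubiquitin ligase. Other members share a locus with miRNAs of the miR-99/100 and miR-125 families: let-7e with miR-99b and miR-125a on chromosome 1, let-7c-1 with miR-99a on chromosome 11 and let-7a-2 with miR-100 on chromosome 8. With no other miRNA gene in that window, let-7g overlaps Wdr82 and Rpl29 on chromosome 8, and let-7i overlaps an uncharacterised protein-coding gene on chromosome 7.

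The libraries held from 13464349 to 23770677 counts. Abundant neural miRNAs marked the tissue: the summed level of miR-9a-5p, miR-124-3p and miR-128-3p ran from 125848 to 136379 CPM (counts scaled to a library of equal size) after TMM normalization in the BCP libraries and from 121047 to 133513 in the sham libraries. The caudal markers miR-10a-5p, miR-10b-5p and miR-196a-5p, which lie in HOX gene clusters, were also present, at a summed 19291 to 24310 CPM over the 6 libraries. The erythroid markers miR-451-5p and miR-144-3p and the leukocyte markers miR-142-3p and miR-142-5p were listed at 0 in every library. Whether such zeros reflect the tissue or the annotation and counting of reads cannot be settled from the count table, so they are not read as absence of those cells. Skeletal muscle markers summed to at most 106 CPM and epithelial markers to at most 15.4 CPM. In the edgeR comparison of BCP with sham described below, 3.49% of all 459 tested miRNAs were called. Of the 3 tested epithelial markers 1 was called, miR-200c-3p, at 10.1, 12.6 and 12.1 CPM in the BCP libraries and 4.04, 4.60 and 2.54 CPM in the sham libraries. Of the 3 tested leukocyte markers 2 were called, both higher in BCP. miR-155-5p was at 265, 280 and 318 CPM against 25.4, 26.6 and 24.2 CPM (11.3-fold), and miR-223-3p at 7.93, 6.04 and 5.57 CPM against 2.31, 0.658 and 1.54 CPM (4.38-fold). The summed leukocyte markers, at 1293 to 1548 CPM in the BCP libraries and 1114 to 1406 CPM in the sham libraries, were mostly miR-150-5p, which had a log2 fold change of -0.13 and was not called. The part of other cell types in the results below was not tested.

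The family was a large part of every library. Its share of all counts was 22.4%, 20.3% and 20.4% in the BCP libraries, and 21.3%, 21.7% and 19.6% in the sham libraries. BCP 1 was the highest and sham 3 the lowest, and the groups overlapped. The share was 21.02% ± 1.20 (SD, n = 3) in the BCP libraries and 20.8% ± 1.13 (SD, n = 3) in the sham libraries, a difference of 0.18 percentage points (two-sided exact permutation test, p = 1, where 3 libraries against 3 cannot give a p below 0.1). The direction rested on single libraries, since the difference was -0.51 without BCP 1, -0.46 without sham 3 and 0.60 without sham 2. Counting error was far smaller than this spread: the 95% Wilson interval of the lowest share ran from 19.55% to 19.59%, and such intervals cover counting error alone.

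The order of the members was the same in all 6 libraries: let-7g-5p, let-7i-5p, let-7c-5p, let-7f-5p, let-7a-5p, let-7b-5p, let-7d-5p, let-7e-5p and, listed at 0, miR-98-5p. Levels here are shares of all counts, and since the members have equal length no correction for length was needed. How evenly the library preparation captured different sequences was not measured. Orders and ratios between strands are therefore those of counts. The leading member, let-7g-5p, made up 6.29%, 6.08% and 6.23% of the BCP libraries and 6.21%, 5.81% and 5.95% of the sham libraries. It ranked between 3 and 5 among all miRNAs of a library. The next, let-7i-5p, made up 5.98%, 5.76% and 5.82% of the BCP libraries and 5.69%, 5.68% and 5.35% of the sham libraries, with ranks from 4 to 6. These 2 members together held between 52.9% and 59.1% of the family's counts.

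A wide step followed. The third member, let-7c-5p, made up 3.20%, 2.50% and 2.33% of the BCP libraries and 2.82%, 3.28% and 2.44% of the sham libraries, and let-7i-5p had between 1.73 and 2.50 times as many counts. For let-7f-5p the shares were 2.25%, 2.16% and 2.31% in the BCP libraries and 2.22%, 2.05% and 2.09% in the sham libraries. Then came let-7a-5p, with 1.93%, 1.52% and 1.53% in the BCP libraries and 1.75%, 1.94% and 1.52% in the sham libraries. In every library these 3 members lay between ranks 8 and 17.

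The lower members followed in smaller steps. For let-7b-5p the shares were 1.29%, 1.01% and 1.01% in the BCP libraries and 1.19%, 1.37% and 1.02% in the sham libraries. For let-7d-5p, the member with the change U1A, they were 0.893%, 0.797% and 0.714% in the BCP libraries and 0.869%, 0.941% and 0.755% in the sham libraries. The least abundant detected member, let-7e-5p, held 0.574%, 0.444% and 0.445% of the BCP libraries and 0.530%, 0.625% and 0.442% of the sham libraries, so that it still ranked between 33 and 39.

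Not all neighbours in this order were apart by more than their spread. The ranges of let-7g-5p and let-7i-5p over the libraries overlapped, although let-7g-5p was higher within each library, by a factor of 1.02 to 1.11. The ranges of let-7c-5p and let-7f-5p just missed each other, and in BCP 3 let-7c-5p was ahead by a factor of 1.01 only. Every other pair of neighbours had ranges that did not overlap.

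**Figure D1:**
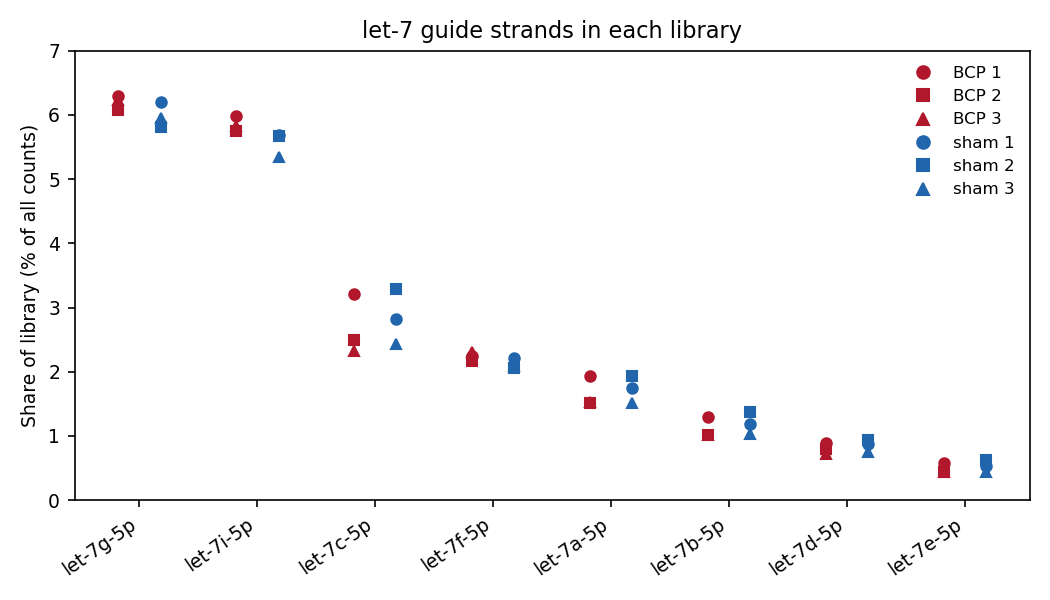
Share of all counts (%, vertical axis) for the 8 detected let-7 guide strands in each library, with BCP in red and sham in blue, a point per library. let-7g-5p and let-7i-5p lie between 5.35% and 6.29%, and the other 6 members between 0.442% and 3.28%, with both groups overlapping in 7 of the 8 and let-7i-5p at 5.76% or more in every BCP library and at 5.69% or less in every sham library, where 20.3% of all tested miRNAs did not overlap on this scale.

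miR-98-5p was listed at 0 counts in all 6 libraries, which by counting error alone allows up to 3 counts, or 0.126 to 0.223 CPM, per library. Whether the 0 reflects its level in the tissue or how reads were annotated and counted cannot be settled from the count table. Its passenger strand, miR-98-3p, was also at 0. So was let-7f-2-3p, the passenger strand of the precursor next to it on chromosome X. The guide strand of that neighbour, let-7f-5p, cannot be read as a measure of the locus, because the let-7f-1 precursor on chromosome 17 gives the same mature sequence. Zeros were not general for that chromosome: 21 of 105 listed miRNAs with a RefSeq sequence on chromosome X, or 20.0%, were at 0 in every library, against 136 of 688, or 19.8%, over all chromosomes. With miR-98-5p at 0, 8 of the 9 members passed the filter on low counts and were tested.

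The comparison of BCP with sham rats asks which miRNAs of the cord changed with the tumor. For none of the 8 tested let-7 guide strands did a difference pass the test. Calls required an adjusted p below 0.05 in the edgeR fit together with a log2 fold change beyond 0.8 in either direction. Of the 8 members, 0 were called, where 3.49% of all 459 tested miRNAs were, and 0 had an adjusted p below 0.05 at any fold, where 3.92% of all did. At the same time 0 of the 8 had an unadjusted p below 0.05, where 13.1% of all had one. DESeq2, limma-voom, edgeR's exact test and its likelihood ratio test also called 0 of the 8 and gave 0 at an unadjusted p below 0.05. After TMM normalization the groups overlapped for all 8, while they did not overlap for 18.5% of all tested miRNAs. All 8 had an absolute log2 fold change under 0.2, as did 58.2% of all. The median log2 fold change of the 8 was -0.069, and that of all tested miRNAs -0.0034.

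The family sum was tested in the same way, with the 9 rows replaced by their sum. It stood at 211290 ± 14755 CPM (SD, n = 3) in the BCP libraries and 208143 ± 22063 CPM (SD, n = 3) in the sham libraries after TMM normalization. The log2 fold change was 0.022 (edgeR, standard error 0.103, adjusted p = 0.961). The 95% interval of the difference ran from 13.8% lower to 19.5% higher in BCP rats, so a change of that size in the total of let-7 cannot be told from 0 with these 6 libraries. The sign of this small difference depended on the setting, being -0.0029 without a filter and -0.0014 with RLE normalization.

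Of the 8 members 3 had a point estimate above 0, where 49% of all tested miRNAs had one. They were the abundant pair and let-7f-5p. let-7i-5p was at 60315, 57090 and 59071 CPM after TMM normalization in the BCP libraries and at 58653, 57360 and 50646 CPM in the sham libraries. Sham 3 stood below the other 5 libraries, which lay close together. The log2 fold change was 0.083 (edgeR, standard error 0.0873, adjusted p = 0.736). As a share of total counts, without TMM factors, all BCP values of let-7i-5p exceeded all sham values (5.85% ± 0.116 against 5.57% ± 0.192, SD, n = 3 each, p = 0.1 in a two-sided exact permutation test, the minimum for 3 libraries against 3). It was the 1 of 8 members without overlap on this scale, where 20.3% of all tested miRNAs did not overlap, 11.5% of all with BCP higher. Its call did not change with total counts in the edgeR fit. let-7g-5p was at 63432, 60318 and 63195 CPM in the BCP libraries and 63980, 58702 and 56321 CPM in the sham libraries, with a log2 fold change of 0.063 and a 95% interval from -0.13 to 0.25. For let-7f-5p the values were 22669, 21421 and 23422 CPM in the BCP libraries and 22869, 20731 and 19796 CPM in the sham libraries, with a log2 fold change of 0.091, the highest of the 8, and an interval from -0.12 to 0.30. Again the groups overlapped for both.

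The other 5 members had point estimates below 0 and wider intervals. This split of signs rested on single libraries. Without sham 2, let-7a-5p, let-7b-5p, let-7c-5p and let-7e-5p were above 0, at 0.035, 0.0098, 0.043 and 0.019 on the log2 scale. Without BCP 2, let-7a-5p was at 0.012, and without sham 3, let-7g-5p and let-7i-5p were below 0, at -0.010 and -0.012. Without sham 3 the other 5 members moved further below 0, to -0.21 for let-7a-5p, -0.27 for let-7b-5p, -0.24 for let-7c-5p, -0.23 for let-7d-5p and -0.30 for let-7e-5p, with adjusted p of 0.171 or more in the edgeR fit. Without BCP 1 these 5 lay between -0.27 for let-7e-5p and -0.19 for let-7d-5p. let-7c-5p was at 32308, 24784 and 23625 CPM after TMM normalization in the BCP libraries and at 29049, 33187 and 23052 CPM in the sham libraries. Each group thus held libraries at the low and at the high end of the range. Its log2 fold change was -0.079 (edgeR, standard error 0.165, adjusted p = 0.900), with an interval from -0.46 to 0.30. let-7e-5p had the lowest estimate, a log2 fold change of -0.12 with an interval from -0.51 to 0.27, and values of 5791, 4405 and 4510 CPM in the BCP libraries and 5462, 6317 and 4185 CPM in the sham libraries. For let-7a-5p, let-7b-5p and let-7d-5p the log2 fold changes were -0.058, -0.11 and -0.085, with intervals from -0.39 to 0.28, from -0.47 to 0.25 and from -0.39 to 0.22. The adjusted p of the 8 members lay between 0.721 and 0.916.

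**Figure D2:**
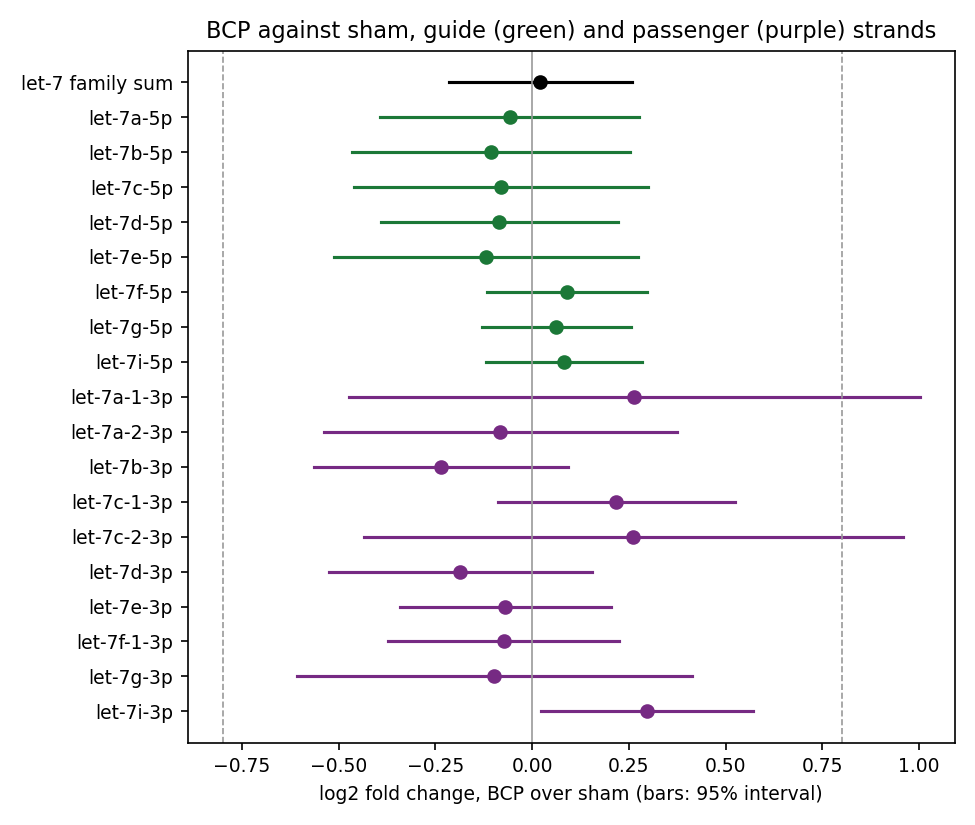
Log2 fold change of BCP over sham rats (horizontal axis, 0 marked by a solid line and the threshold of 0.8 by dashed lines) with its 95% interval for the family sum, the 8 tested guide strands in green and the 10 tested passenger strands in purple. Every interval of a guide strand holds 0 and stays within -0.51 and 0.30, and let-7i-3p is the passenger strand whose unadjusted interval lies above 0, from 0.022 to 0.57.

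The members differed in how much they varied between libraries. Within groups, the standard deviation of log2(CPM + 1) after TMM normalization was 0.072 for let-7g-5p, 0.086 for let-7i-5p and 0.088 for let-7f-5p. Between 6.54% and 11.3% of all tested miRNAs varied less than these. For let-7d-5p it was 0.19, for let-7a-5p 0.22, for let-7b-5p 0.24, for let-7c-5p 0.25 and for let-7e-5p 0.26, and between 53.6% and 74.7% of all tested miRNAs varied less.

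The wide spread of let-7a-5p to let-7e-5p had a shared form, which was noticed after the values were seen and was not tested. Each of these 5 members was above its own mean in BCP 1, sham 1 and sham 2, and below it in BCP 2, BCP 3 and sham 3. For let-7e-5p the deviation from its mean, on the log2 scale, was 0.20, -0.20 and -0.16 in the BCP libraries and 0.11, 0.32 and -0.27 in the sham libraries. let-7f-5p did not follow, with 0.058, -0.024 and 0.10 in the BCP libraries and 0.070, -0.071 and -0.14 in the sham libraries, although let-7f-1 lies beside let-7a-1 and let-7d on chromosome 17. For let-7g-5p and let-7i-5p the deviations ran from -0.17 to 0.079, the lowest in sham 3. How many of all tested miRNAs were highest in BCP 1, sham 1 and sham 2 was not counted. Outside the lists used here, miR-328a-3p was highest in them too. It was at 19795, 17205 and 15876 CPM in the BCP libraries and at 20137, 23320 and 16228 CPM in the sham libraries. miR-126a-5p was instead lowest in them, at 149, 241 and 275 CPM and at 186, 134 and 266 CPM.

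**Figure D3:**
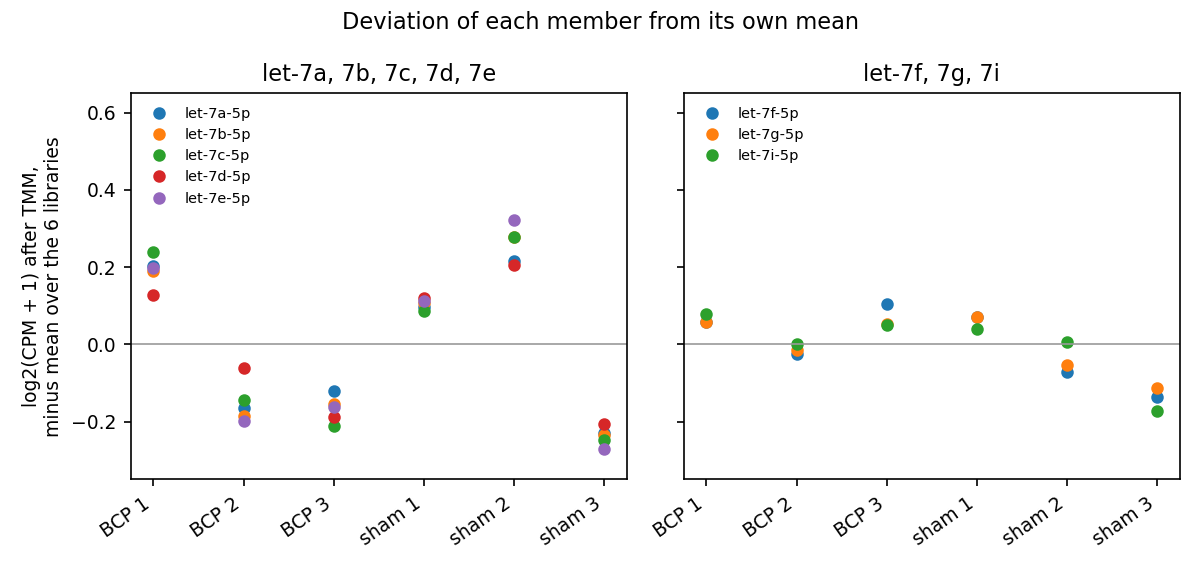
Deviation of log2(CPM + 1) after TMM normalization from each member's mean over the 6 libraries (vertical axis) by library, for let-7a-5p to let-7e-5p at the left and let-7f-5p, let-7g-5p and let-7i-5p at the right. The 5 members at the left are all above 0 in BCP 1 and sham 1 and sham 2 and all below 0 in the other 3 libraries, and the 3 at the right stay between -0.17 and 0.10.

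The make-up of the family shifted from library to library. let-7a-5p to let-7e-5p together held 35.2%, 30.9% and 29.6% of the family's counts in the BCP libraries and 33.7%, 37.6% and 31.6% in the sham libraries. The groups overlapped, at 31.9% ± 2.94 (SD, n = 3) in the BCP libraries and 34.3% ± 3.07 (SD, n = 3) in the sham libraries (two-sided exact permutation test, p = 0.4). These shares do not depend on how the libraries are scaled. Tested singly, the share of the family held by each of the 8 members overlapped between the groups, with exact permutation p from 0.3 to 0.6 and Benjamini-Hochberg adjusted p from 0.571 to 0.6 over the 8.

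Values of other markers moved with this pattern, though not whole lists, and their part in it was not tested. The summed oligodendrocyte markers miR-219a-2-3p, miR-219a-5p and miR-338-3p, none of them at 0, were at 15233, 13542 and 12903 CPM in the BCP libraries and at 16761, 17265 and 14182 CPM in the sham libraries, higher in the same 3 libraries. That sum was almost all miR-219a-2-3p, and the other markers ran the opposite way. miR-338-3p was at 19.2, 29.2 and 27.6 CPM in the BCP libraries and 24.2, 19.4 and 28.8 CPM in the sham libraries, and miR-219a-5p at 4.54, 6.33 and 6.26 CPM and at 5.26, 4.27 and 5.88 CPM. The summed caudal HOX markers were lower in those libraries, at 20832, 22394 and 24310 CPM in the BCP libraries and 19889, 19291 and 21475 CPM in the sham libraries. That sum was mostly miR-10a-5p. miR-196a-5p was instead higher in those libraries, at 354, 322 and 266 CPM and at 326, 335 and 253 CPM, and miR-10b-5p followed neither course, at 3521, 3510 and 3795 CPM and at 3416, 3418 and 3434 CPM. Single markers of other lists were also highest in BCP 1, sham 1 and sham 2, so the course was not particular to any of these lists. Among the neural markers, miR-128-3p was at 60625, 51319 and 57884 CPM in the BCP libraries and 64503, 67418 and 54586 CPM in the sham libraries, while miR-9a-5p and miR-124-3p did not separate those libraries from the rest. The leukocyte marker miR-150-5p was at 1275, 1147 and 969 CPM and at 1257, 1379 and 1088 CPM, while miR-155-5p and miR-223-3p, given above, did not have this order. The muscle markers miR-133a-3p, at 81.8, 74.6 and 71.2 CPM and at 86.1, 75.6 and 63.5 CPM, and miR-206-3p, at 6.07, 5.89 and 5.31 CPM and at 6.13, 6.31 and 4.81 CPM, had the same order, and the third muscle marker, miR-1-3p, at 15.2, 16.2 and 20.7 CPM and at 14.3, 12.1 and 14.4 CPM, did not. In bulk tissue, fewer cells of a type and less RNA per cell cannot be told apart.

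Among 5 partner guide strands, the 4 from the shared loci above and miR-125b-5p, for which no let-7 precursor was found within the 10 kb window, the test called 0 (3.49% of all tested miRNAs), and 0 had an unadjusted p below 0.05 (13.1% of all). Their log2 fold changes ran from -0.14 for miR-99b-5p to 0.048 for miR-99a-5p, with a median of -0.11. Of the 5, 4 were highest in the same 3 libraries as let-7a-5p to let-7e-5p, an order not counted over all tested miRNAs. Of these, miR-125a-5p was at 13406, 12039 and 10867 CPM in the BCP libraries and 13402, 15382 and 11020 CPM in the sham libraries, and miR-99b-5p at 9469, 8446 and 8030 CPM and at 9976, 10417 and 8224 CPM. The fifth, miR-99a-5p, which was the most abundant miRNA, was instead lowest in sham 2, at 124415 CPM, and highest in BCP 2, at 132533 CPM. miR-100-5p was at 26252, 25772 and 24643 CPM in the BCP libraries and 29052, 27709 and 26175 CPM in the sham libraries. miR-125b-5p was at 40423, 38963 and 35600 CPM in the BCP libraries and 40504, 40394 and 34204 CPM in the sham libraries.

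The passenger strands come from the other arm of the same precursors. The table lists 12, of which miR-98-3p and let-7f-2-3p were at 0 and 10 were tested. Guide strands outnumbered them by far: summed over the family, there were 129, 120 and 120 guide counts per passenger count in the BCP libraries and 115, 115 and 110 in the sham libraries. All 3 BCP values exceeded all 3 sham values, at 123 ± 5.12 against 113 ± 2.71 (SD, n = 3 each). On the log2 scale the difference was 0.12 (p = 0.1 in a two-sided exact permutation test, the minimum for 3 libraries against 3), and it lay between 0.083 and 0.14 when each library was left out in turn. How often such ratios do not overlap for other miRNAs was not computed. As shares of total counts, 20.3% of all tested miRNAs did not overlap.

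This ratio ranged widely among the members. let-7d had the fewest guide counts per passenger count, from 8.13 to 9.28, and let-7d-3p with 93058 counts over the 6 libraries was the most abundant passenger strand. For let-7b the ratio lay between 32.6 and 38.8, and for let-7e between 52.5 and 67.6. At the other end, let-7i had between 1683 and 2147 and let-7g between 18715 and 27006, since let-7g-3p never exceeded 61 counts in a library. In the summed ratio let-7d-3p and let-7b-3p weigh most below the line, as the most abundant passenger strands. Above the line let-7g-5p and let-7i-5p weigh most, with between 52.9% and 59.1% of the guide counts. The summed ratio thus mostly sets strands of different precursors against each other. By member, the group mean of the ratio was higher in BCP for let-7b, let-7d, let-7f and let-7g. It was lower in BCP for let-7a, let-7c, let-7e and let-7i. let-7d was higher in every BCP library, with 8.98, 9.28 and 8.74 against 8.53, 8.13 and 8.60, and let-7i was lower in every BCP library, with 1961, 1704 and 1683 against 2147, 2038 and 1993. Over the 8 members with a ratio, the adjusted p of both was 0.4 (two-sided exact permutation test with Benjamini-Hochberg adjustment). For these ratios too, no share without overlap over other miRNAs was computed, where 20.3% of all tested miRNAs did not overlap as shares of total counts.

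**Figure D4:**
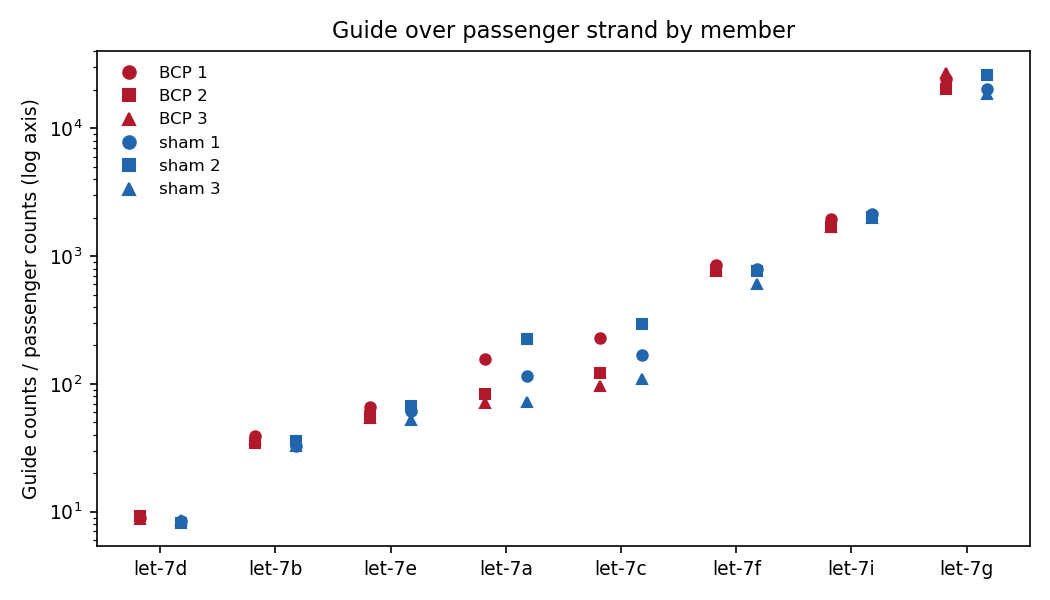
Guide counts per passenger count (vertical log axis) for each member with a detected passenger strand, a point per library, with BCP in red and sham in blue. The ratio rises from 8.13 to 9.28 for let-7d to between 18715 and 27006 for let-7g, and the points of let-7a and let-7c are the most widely spread, from 70.3 to 225 and from 96.0 to 297.

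Of the 10 tested passenger strands, 0 were called, where 3.49% of all tested miRNAs were, and 1 had an unadjusted p below 0.05, where 13.1% of all had one, and their median log2 fold change was -0.071. That strand was let-7i-3p, at 30.7, 33.5 and 35.1 CPM after TMM normalization in the BCP libraries and at 27.3, 28.1 and 25.4 CPM in the sham libraries. The BCP values all exceeded the sham values, a pattern that 13.3% of all tested miRNAs had in this direction and 5.23% in the other. Its log2 fold change was 0.30 (edgeR, standard error 0.119, adjusted p = 0.317). let-7b-3p and let-7d-3p, which hold most passenger counts, had log2 fold changes of -0.24 and -0.19 with intervals from -0.56 to 0.093 and from -0.53 to 0.15. For let-7f-1-3p, at 374 to 625 counts per library, the log2 fold change was -0.073.

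The spread of let-7a and let-7c in the plot of guide counts per passenger count concerns a passenger sequence that 2 precursors share. It is printed to show that reads of the let-7a-1 and let-7c-2 precursors cannot be told apart on this arm, again with bases 2 to 8 in capitals:
let-7a-1-3p and let-7c-2-3p: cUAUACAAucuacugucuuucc

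The table lists the 2 names separately, with near-equal counts. let-7a-1-3p had 2786, 2394 and 3386 counts in the BCP libraries and 2069, 1251 and 2870 in the sham libraries. let-7c-2-3p had 2717, 2332 and 3448 counts and 1996, 1366 and 2802 counts in the same order. The part of the pair listed under let-7a-1-3p was between 47.8% and 50.9%, and in 5 of 6 libraries its exact 95% Clopper-Pearson interval held 50%. In sham 2 the interval ran from 45.9% to 49.7%. With identical sequences, the counts under these 2 names are no separate measures of the 2 precursors.

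Together this sequence was at 232, 351 and 426 CPM of the library total in the BCP libraries and at 284, 170 and 401 CPM in the sham libraries. It was lowest in BCP 1 and sham 1 and sham 2, the same 3 libraries in which the guide strands let-7a-5p and let-7c-5p were highest. let-7a-2-3p and let-7c-1-3p, from the other precursors of the same guides, had at most 128 and 637 counts in a library. let-7e-3p lay between 78.6 and 93.5 CPM after TMM normalization and was highest in the same 3 libraries as let-7e-5p.

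The 4 antisense miRNAs miR-3596a, miR-3596b, miR-3596c and miR-3596d, which include the partners annotated over let-7a-2, let-7d and let-7e, were listed at 0 in every library.

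Outside the let-7 guide and passenger strands, the partner guide strands and the antisense miRNAs, the miRNAs with a course over the 6 libraries most like that of the family sum were miR-125b-2-3p, miR-652-3p and miR-222-3p. Likeness was the root mean square difference of log2(CPM + 1) after TMM normalization, each centred on its own mean, and it was 0.042, 0.045 and 0.048 for these 3, against a median of 0.19 over 436 miRNAs. A miRNA with little spread also has a small value on this measure, so that contrast does not show a shared course by itself. Among the members let-7i-5p was the closest to the sum, at 0.047, and let-7e-5p the farthest, at 0.14. miR-125b-2-3p is the other arm of a precursor of the partner miR-125b-5p, so it is not separate from the partners, and was at 639, 588 and 569 CPM in the BCP libraries and 582, 615 and 513 CPM in the sham libraries. With the other 2 it shared the low value in sham 3. All of these points share the same 6 libraries and their scaling.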

How the data were processed

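Total RNA of the lumbar cord was made into small RNA libraries for 3 BCP and 3 sham replicates. The authors cleaned the reads with FASTX, mapped clean reads to the rat genome Rnor_6.0 (Bowtie2 2.2.3 in the submitters' processing notes) and identified known miRNAs by length and miRBase annotation. The deposited table holds a raw read count per mature miRNA and library, not normalized by the authors, and 0 columns could not be assigned to a sample. How reads matching several miRNAs were assigned is not given in the sources used here.

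Counts were analysed with edgeR 4.0.16 in R 4.3.3 (filterByExpr with a minimum count of 10, TMM, quasi-likelihood test, Benjamini-Hochberg adjustment over 459 miRNAs). Standard errors and intervals followed from the fold change and its F statistic. The family sum was fitted in place of its 9 rows. Single values were compared by two-sided exact permutation tests in scipy 1.17.1. Alternatives used DESeq2 1.42.0 and limma 3.58.1, other filters, scalings and denominators, a replicate block, and leaving out each library. Libraries of a group differed by a chi-square of at least 59.0 per degree of freedom, so none was a copy. At 13464349 to 23770677 counts per library, 3 counts correspond to 0.126 to 0.223 CPM. This limit and the Wilson and Clopper-Pearson intervals cover counting error only, and reads carry no molecular identifiers. The edgeR intervals of fold changes also include the spread between libraries. Animals per library are not stated, so p-values measure the spread between these libraries.

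The members, lists and tests were chosen with earlier results of these data known. All members, passenger strands, locus partners and antisense miRNAs were named, with the 3 miRNAs most like the family sum. The split of the members by their spread was noticed afterwards. Sequences and neighbouring genes come from RefSeq (GRCr8), another assembly than the authors', so coordinates are not given.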

Additional observations from a re-analysis of the deposited data

How the results depend on the processing

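The number of let-7 guide strands called was 0 under every alternative run, also with each library left out (0 to 0), with adjusted p alone and with a log2 fold change threshold of 0.5. The log2 fold change of the family sum, 0.022, changed sign to -0.0029 without a filter, -0.0014 with RLE normalization and -0.0014 with DESeq2, and lay between -0.069 and 0.057 with each library left out, the lowest without sham 3 and -0.045 without BCP 1. The difference in library share, 0.18 percentage points, ran from -0.51 without BCP 1 to 0.60 without sham 2, was -0.46 without sham 3, and was 0.33 with TMM library sizes and -0.0012 without the 10 most abundant other miRNAs in the total. For single members, 80 of 80 fits with other filters, scalings or tests kept the sign and stayed above an adjusted p of 0.05. Leaving out a library changed 7 signs: let-7a-5p to 0.012 without BCP 2, without sham 2 let-7a-5p to 0.035, let-7b-5p to 0.0098, let-7c-5p to 0.043 and let-7e-5p to 0.019, and without sham 3 let-7g-5p to -0.010 and let-7i-5p to -0.012. The lowest adjusted p over all fits was 0.171, without sham 3. The difference in the guide to passenger ratio lay between 0.083 and 0.14. The lowest and highest values over the libraries left out were -0.21 and 0.035 for let-7a-5p, -0.27 and 0.0098 for let-7b-5p, -0.25 and 0.043 for let-7c-5p, -0.23 and -0.0048 for let-7d-5p, -0.30 and 0.019 for let-7e-5p, 0.013 and 0.13 for let-7f-5p, -0.010 and 0.088 for let-7g-5p and -0.012 and 0.11 for let-7i-5p. For all of these shifts the cause was not tested. Whether replicate numbers pair the libraries is not known. The deviations of same-numbered libraries correlated at 0.11, -0.45 and 0.71, and those of differently numbered ones between -0.73 and 0.75, which cannot decide it. A fit with the number as a replicate block gave the family sum a log2 fold change of 0.025, a share difference of 0.18 percentage points and 0 members called.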
